A study of Mus musculus with 30 samples.

Results

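The PPM family is the set of metal-dependent serine/threonine phosphatases related to PP2C. Its 8 members followed here were Ppm1a, Ppm1b, Ppm1d, Ppm1f, Ppm1g, Ppm1h, Ppm1k and Ppm1l. They were taken as every array probe whose gene symbol equals one of these names, which gave 15 of 25697 probes and 8 of 18097 gene symbols. The samples were mouse embryonic stem cells (ESCs) of the line Ainv15, which carries the reverse tetracycline transactivator. A rescue clone carries an shRNA against its target mRNA together with a transgene for the same mRNA that the shRNA cannot bind, and the transgene is expressed only while doxycycline (Dox, 1 μg/ml) is in the medium. The clones were Ppm1g_R, Bub1b_R, Chek1_R, Ppp2r1b_R and the control clone Ctrl_R, each measured with Dox (+Dox) and after 5 days without it (−Dox), with 3 Illumina bead arrays per condition and 30 in all. By their sample numbers the Ctrl_R samples were deposited before those of the other clones, and the labels do not say whether all arrays were run together. Every clone, Ctrl_R included, had been grown in Dox before withdrawal. The clones were raised on mouse embryo fibroblasts, which the study's methods describe as removed before the arrays. The labels do not say whether the 3 arrays of a condition came from separate cultures or separate clones, so the p-values measure the spread between these arrays. The comparison asked whether the paralogues shift where Ppm1g is depleted.

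PPM phosphatases act as single chains and need bound magnesium or manganese for catalysis, unlike PP2A, which works as a complex of a catalytic, a scaffold and a regulatory subunit. Their targets differ from member to member. Ppm1g is a nuclear enzyme that acts on splicing factors and on the 7SK complex, which holds back the transcription elongation factor P-TEFb. Ppm1a and Ppm1b switch off stress kinase and TGF-beta signalling, Ppm1d (Wip1) is a p53 target that shuts down the DNA damage response, Ppm1f removes phosphate from CaM kinases and PAK, Ppm1h acts on Rab proteins, Ppm1k activates the mitochondrial branched-chain ketoacid dehydrogenase, and Ppm1l sits in the endoplasmic reticulum membrane.

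The depletion of Ppm1g and its rescue rest on a single stretch of 21 bases, shown here because it separates the 2 copies of the mRNA in Ppm1g_R. Capitals mark the bases that differ between the shRNA target and the rescue copy, and positions are counted from 1 at the 5′ end.
Ppm1g shRNA target: gccttgtaCtgTgcCaaatat
Ppm1g rescue copy: gccttgtaTtgCgcTaaatat
The 3 substitutions, C9T, T12C and C15T, all stand at position 3 of a codon in the reading frame that starts at base 1, the only frame of 3 in which both copies encode the same residues. No paralogue transcript was searched for this site.

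Levels are log2 intensities after background correction and quantile normalization. The arrays detected (detection p under 0.05) between 11733 and 13685 probes, and the 15151 probes detected on at least 3 arrays were tested together. The word changed is used of a probe with a difference of at least 1.5-fold, or 0.585 on the log2 scale, and a limma p under 0.05 after Benjamini-Hochberg adjustment over all tested probes. Of the 15 member probes 14 were tested, at least 1 for each gene. Where a gene has several probes they are called a, b and c from the brightest to the dimmest. The lowest detected intensity ranged from 12.9 to 20.9 over the 12 Bub1b_R and Ctrl_R arrays, and from 27.8 to 58.1 over the remaining 18. For Ppm1g_R against Ctrl_R this array background and the clone cannot be told apart, while a clone with and without Dox lies on 1 side of that split. The 6 ES cell markers on the array were detected on every array. Their summed intensity was 32274 to 34591 in Ppm1g_R +Dox and 28295 to 28966 in Ppm1g_R −Dox, and 33110 to 34475 and 29233 to 30283 in Ctrl_R. Without Dox in Ppm1g_R, Pou5f1 was lower by 0.48, Tcl1 by 0.36 and Esrrb by 0.30, all past the adjusted p (8.0e-04 or lower by limma) and under 1.5-fold. Nanog was lower by 0.11, while Sox2 and Zfp42 were higher by 0.045 and 0.087. In Ctrl_R, Pou5f1, Tcl1 and Esrrb were lower without Dox by 0.19, 0.39 and 0.31. For the 6 markers the median change in Ppm1g_R beyond that in Ctrl_R was 0.02. Of 9 fibroblast markers, between 3 and 5 were detected on all arrays of a condition, and their summed intensity was 1404 to 1521 in Ppm1g_R +Dox and 1309 to 1443 in Ppm1g_R −Dox. In Ctrl_R the sum was 2248 to 2444 with Dox and 2296 to 2533 without it. Of the 6 fibroblast markers tested, Col1a1 rose by 0.91, Dcn rose by 0.83 and Thy1 fell by 0.61 on Dox withdrawal in Ppm1g_R. Dcn was undetected in Ppm1g_R +Dox, so its rise starts under the detection limit. In the other targeted clones Col1a1 was higher without Dox by 0.58 to 1.06 and Dcn by 0.68 to 1.56, and Thy1 was lower by 0.02 to 0.81. In Ctrl_R these 3 differed by −0.12, 0.14 and 0.05. The part of either marker set in the paralogue differences was not tested. In bulk RNA, fewer cells of a type and less RNA per cell cannot be told apart. No tested probe of the other targeted mRNAs fell past the test in its own clone. Bub1b was 0.14 lower without Dox in Bub1b_R and Ppp2r1b was 0.20 higher in Ppp2r1b_R, neither past the test (adjusted p 0.217 and 0.365 by limma). On the arrays labelled Chek1_R the tested Chek1 probes were higher without Dox, by 0.51 and 0.71 (adjusted p 0.0132 and 0.00115 by limma). With Dox their means, 4.90 and 5.31, lay under the lowest detected level of those arrays (5.54 to 5.61). Without Dox the mean of the first, 5.42, was still under that level (5.55 to 5.58), and that of the second, 6.01, was above it. A rise goes against the label for a probe that reads the rescue copy. The study describes the Bub1b and Chek1 transgenes as lacking the shRNA target, and which copy these probes read is not given.

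Ppm1g fell on Dox withdrawal in Ppm1g_R and in no other clone. Its single probe (ILMN_2643832) was detected on all 30 arrays. In Ppm1g_R the level was 9.76, 9.76 and 9.82 with Dox and 8.61, 8.40 and 8.59 without it, which in deposited intensity is 996.4, 1113.0 and 1476.1 against 419.2, 484.6 and 490.0. The arrays without Dox lay well below those with Dox, with no overlap. The change was −1.25 (SE 0.10, 95% interval −1.46 to −1.03, adjusted p 4.5e-09 by limma). It was 0.16 in Bub1b_R and in Ctrl_R, −0.06 in Ppp2r1b_R and −0.05 on the arrays labelled Chek1_R, none past the test. Set against the change in Ctrl_R, that in Ppm1g_R differed by −1.41 (SE 0.14, adjusted p 6.4e-07 by limma), and minus the mean of the changes in Bub1b_R, Chek1_R and Ppp2r1b_R it was −1.27 (SE 0.12, adjusted p 9.2e-08 by limma). Whether the probe reads the endogenous mRNA, the rescue copy or both is not given in the sources used here. By the design only the transgene depends on Dox, so the change on withdrawal does not by itself measure the knockdown of the endogenous mRNA.

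**Figure D1:**
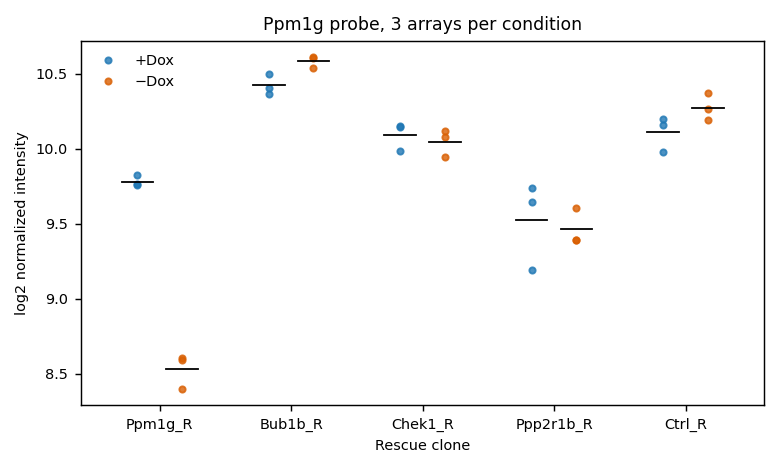
Ppm1g level on each array (y axis, log2 normalized intensity) by rescue clone (x axis). Points are single arrays, blue with Dox and orange without, and black bars are means of 3 arrays. Ppm1g_R −Dox lies lowest at a mean of 8.53.

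Across the 10 conditions the Ppm1g level ran from 8.53 ± 0.12 (SD, n = 3) in Ppm1g_R −Dox to 10.59 ± 0.04 in Bub1b_R −Dox. From the top the order was Bub1b_R −Dox, Bub1b_R +Dox (10.42 ± 0.07), Ctrl_R −Dox (10.28 ± 0.09), Ctrl_R +Dox (10.11 ± 0.12), Chek1_R +Dox (10.10 ± 0.09), Chek1_R −Dox (10.05 ± 0.09), Ppm1g_R +Dox (9.78 ± 0.04), Ppp2r1b_R +Dox (9.53 ± 0.29), Ppp2r1b_R −Dox (9.46 ± 0.12) and Ppm1g_R −Dox. The arrays of neighbours overlapped from Bub1b_R +Dox down to Chek1_R −Dox and between both Ppp2r1b_R conditions. They did not overlap at the other steps of this order. The depleted condition stood 0.93 below its nearest neighbour (limma adjusted p 5.1e-08 against Ppp2r1b_R −Dox) and 1.74 below Ctrl_R −Dox (SE 0.10, adjusted p 5.7e-13 by limma). With Dox, Ppm1g in Ppm1g_R was 0.33 below Ctrl_R +Dox, past the adjusted p (0.00745 by limma) and short of 1.5-fold. Ppp2r1b_R was also lower than Ctrl_R, by 0.81 without Dox (adjusted p 2.6e-07 by limma) and by 0.59 with it (adjusted p 3.0e-05 by limma), both of which cross the array background split.

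None of the 13 tested paralogue probes changed on Dox withdrawal in Ppm1g_R, where 4.37% of all tested probes did. Their changes ran from −0.32 (Ppm1l probe a) to 0.36 (Ppm1f probe a) with a median of 0.08, against −0.01 over all tested probes. The median absolute change was 0.16 for the paralogue probes and 0.16 over all tested probes. For 12 of the 13 probes the 95% interval lay within 1.5-fold in both directions, and the exception was Ppm1h (−0.24 to 0.89). Passing the adjusted p without a fold limit were 2 paralogue probes, Ppm1f probe a and Ppm1k, while 23.4% of all probes did so. The paralogue probes did not change on Dox withdrawal in the other clones either. The count was 0 of 13 in Bub1b_R beside 5.60% of all probes, 0 in Chek1_R as labelled beside 9.27%, 0 in Ppp2r1b_R beside 4.82% and 0 in Ctrl_R beside 1.10%. In that order 1, 2, 3 and 1 paralogue probes passed the adjusted p alone, beside 24.4%, 30.9%, 25.3% and 7.55% of all probes.

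**Figure D2:**
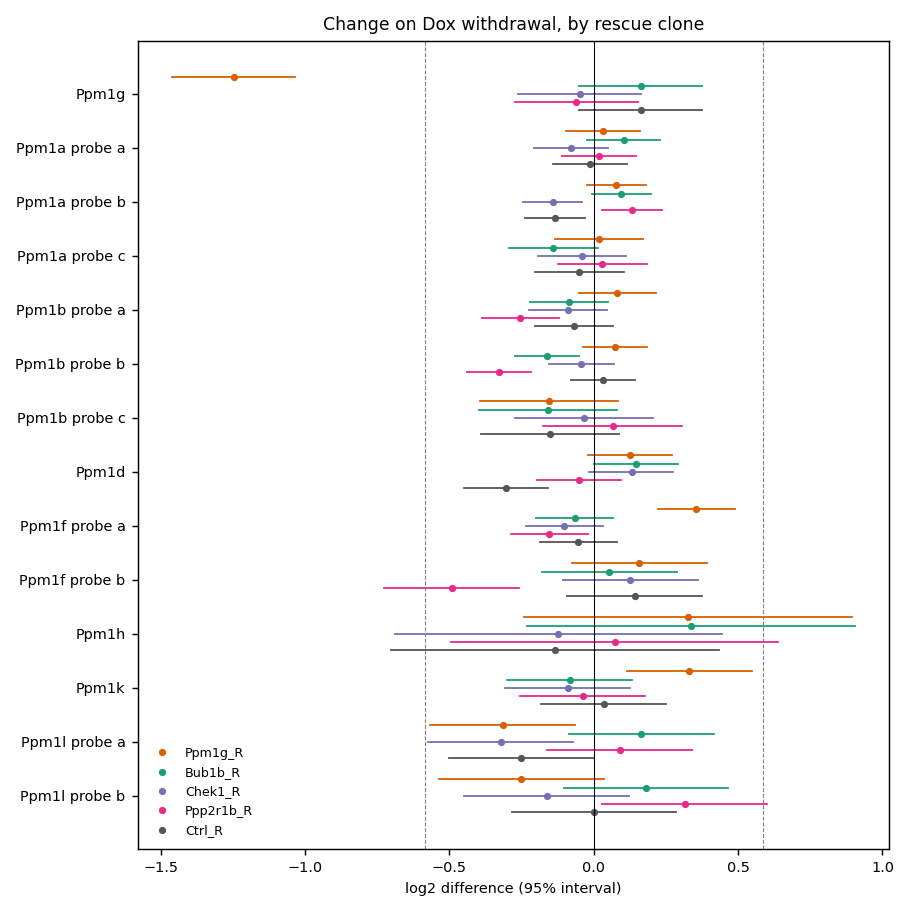
Change on Dox withdrawal (x axis, log2 difference with its 95% interval) for Ppm1g and the 13 tested paralogue probes, coloured by rescue clone. Dashed lines mark 1.5-fold. Ppm1g in Ppm1g_R, at −1.25, is the single point outside the dashed lines.

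Ppm1f, the CaM kinase and PAK phosphatase, had the largest of these differences. Probe a (ILMN_2792756) read 10.29, 10.21 and 10.14 in Ppm1g_R +Dox and 10.43, 10.66 and 10.62 in Ppm1g_R −Dox, so every array without Dox lay above every array with Dox. The change was 0.36 (SE 0.07, 95% interval 0.22 to 0.49, adjusted p 2.4e-04 by limma). In the other clones this probe was lower without Dox, by 0.07 in Bub1b_R, 0.15 in Ppp2r1b_R, 0.05 in Ctrl_R and 0.10 on the arrays labelled Chek1_R, none past the test. The change in Ppm1g_R exceeded that in Ctrl_R by 0.41 (SE 0.09, adjusted p 0.00371 by limma) and the mean of the other targeted clones by 0.46 (SE 0.08, adjusted p 1.5e-04 by limma). Leaving the arrays labelled Chek1_R out of that mean gave 0.47 (adjusted p 4.4e-04 by limma). The level nevertheless stayed below that of every other clone, where the condition means ran from 10.93 in Ctrl_R −Dox to 11.35 in Bub1b_R +Dox. Ppm1g_R therefore differed more from other clones with Dox than without it. Against Ctrl_R +Dox it was lower by 0.77 (adjusted p 4.6e-10 by limma) and against Ctrl_R −Dox by 0.36 (adjusted p 3.8e-05 by limma). Against Ppp2r1b_R, which lies on the same side of the array background split, it was lower by 0.93 with Dox (adjusted p 4.1e-11 by limma) and by 0.42 without it (adjusted p 6.4e-06 by limma).

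The dimmer Ppm1f probe b (ILMN_2729496) read 7.09, 6.90 and 6.95 in Ppm1g_R +Dox and 7.18, 7.08 and 7.14 in Ppm1g_R −Dox. Its arrays overlapped, and the change of 0.16 (95% interval −0.08 to 0.39) did not pass the test. Probes a and b had r = 0.61 over the 30 arrays, which share normalization. In Ppp2r1b_R probe b read 7.70, 7.85 and 7.72 with Dox and 7.38, 7.33 and 7.07 without it, a difference of −0.49 (adjusted p 0.00237 by limma) that stayed under 1.5-fold. Probe c was detected on 0 of 30 arrays and was not tested.

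Ppm1k, the mitochondrial phosphatase of branched-chain amino acid breakdown, was likewise lowest in Ppm1g_R +Dox. It read 7.14, 7.54 and 7.54 in Ppm1g_R +Dox and 7.68, 7.73 and 7.80 in Ppm1g_R −Dox. The arrays did not overlap, and the first array with Dox stood 0.40 below the other two. The change was 0.33 (SE 0.11, 95% interval 0.11 to 0.55, adjusted p 0.0236 by limma), and without that array it was 0.20, no longer past the test (adjusted p 0.204 by limma). It also missed the adjusted p without the second or the third array of Ppm1g_R −Dox (0.0564 and 0.0872 by limma). It exceeded the mean of the changes in the other targeted clones by 0.40 (adjusted p 0.031 by limma), or by 0.39 with the arrays labelled Chek1_R left out of that mean (adjusted p 0.0546 by limma), while its excess over Ctrl_R, 0.30, did not pass (adjusted p 0.213 by limma). Condition means in the other clones ran from 7.85 in Bub1b_R −Dox to 8.22 in Ctrl_R −Dox. In Ppm1g_R +Dox it was 0.78 below Ctrl_R +Dox (adjusted p 7.4e-07 by limma) and 0.61 below Ppp2r1b_R +Dox (adjusted p 4.7e-05 by limma). Without Dox the gap was 0.49 to Ctrl_R (adjusted p 2.8e-04 by limma), under 1.5-fold, and 0.24 to Ppp2r1b_R, which did not pass (adjusted p 0.061 by limma).

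**Figure D3:**
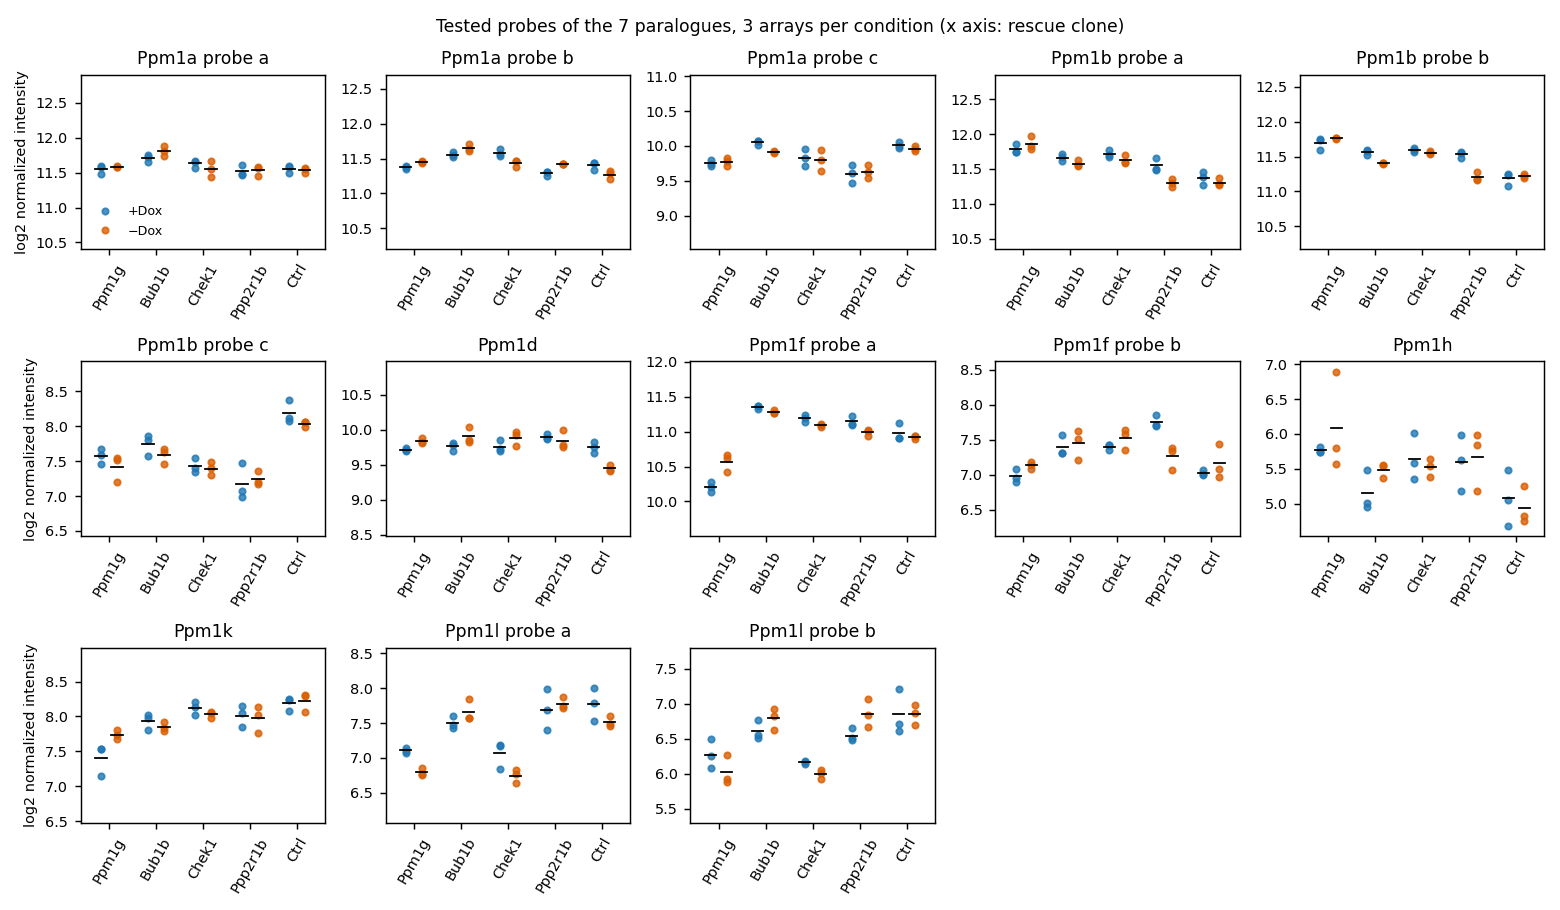
Level of each tested paralogue probe on each array (y axis, log2 normalized intensity, each panel spanning the same 2.5 log2 units) by rescue clone (x axis), blue with Dox and orange without, black bars for means of 3 arrays. Ppm1f probe a and Ppm1k lie lowest in Ppm1g_R +Dox, and both Ppm1l probes lie low in Ppm1g_R and Chek1_R.

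Ppm1d, which ends the p53 and ATM response, had its lowest level in the control clone and not in Ppm1g_R. In Ppm1g_R it read 9.71, 9.70 and 9.74 with Dox and 9.81, 9.89 and 9.83 without it, a difference of 0.13 (95% interval −0.02 to 0.27, adjusted p 0.215 by limma) with no overlap of the arrays. In Ctrl_R it read 9.76, 9.82 and 9.67 with Dox and 9.50, 9.43 and 9.42 without it, a difference of −0.30 (SE 0.07, adjusted p 0.00846 by limma). The difference between these 2 changes was 0.43 (SE 0.10, adjusted p 0.00505 by limma). Ppm1d was above Ctrl_R −Dox by 0.40 in Ppm1g_R, 0.46 in Bub1b_R, 0.40 in Ppp2r1b_R and 0.44 on the arrays labelled Chek1_R, all past the adjusted p (2.9e-05 or lower by limma) and all under 1.5-fold. These differences share the Ctrl_R −Dox arrays. With Dox the same differences were −0.03, 0.01, 0.15 and 0.01, none past the test, and against Ppp2r1b_R −Dox that of Ppm1g_R was 0.00 (95% interval −0.14 to 0.15).

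Ppm1a and Ppm1b are the most alike members by known function. Ppm1a probe a read 11.58, 11.60 and 11.47 with Dox and 11.58, 11.57 and 11.60 without it in Ppm1g_R, and its change of 0.03 had a 95% interval of −0.10 to 0.16. For probes b and c of Ppm1a the differences were 0.08 and 0.02, neither past the test. Over all conditions the means of the Ppm1a probes spanned 0.29 to 0.45 log2 units, less than those of any other tested member probe. Ppm1d came next at 0.46.

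Ppm1b gave opposite readings from its probes between clones. Probe a read 11.75, 11.86 and 11.74 in Ppm1g_R +Dox and 11.79, 11.83 and 11.97 in Ppm1g_R −Dox, against 11.28, 11.27 and 11.37 in Ctrl_R −Dox. Probes a and b were above Ctrl_R −Dox by 0.56 and 0.55 (adjusted p 6.5e-08 and 4.4e-09 by limma), just short of 1.5-fold. Probe c, much dimmer, read 7.55, 7.51 and 7.20 in Ppm1g_R −Dox and 8.06, 8.06 and 7.99 in Ctrl_R −Dox and was lower by 0.62 (SE 0.12, adjusted p 5.8e-05 by limma). Without the third Ppm1g_R −Dox array probe c was lower by 0.51, under 1.5-fold, and the same held with median scaling (0.53), an offset of 50 (0.53) or an offset of 200 (0.33). Over the 30 arrays, which share normalization, r was 0.93 between probes a and b, −0.33 between a and c and −0.43 between b and c. The transcripts these probes read are not given in the sources used here, so no direction is given for Ppm1b as a gene. On Dox withdrawal in Ppm1g_R the Ppm1b probes differed by 0.08, 0.07 and −0.16, none past the test. In Ppp2r1b_R probes a and b were lower without Dox by 0.25 and 0.33 (adjusted p 0.00545 and 8.9e-05 by limma), under 1.5-fold.

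Ppm1l, the endoplasmic reticulum member, was low in Ppm1g_R and on the arrays labelled Chek1_R in both Dox states. Probe a read 7.07, 7.11 and 7.14 in Ppm1g_R +Dox and 6.77, 6.76 and 6.85 in Ppm1g_R −Dox, against 7.79, 8.00 and 7.53 in Ctrl_R +Dox and 7.46, 7.61 and 7.49 in Ctrl_R −Dox. All 6 Ppm1g_R arrays lay below all 6 Ctrl_R arrays. Without Dox it was lower than in Ctrl_R by 0.73 (SE 0.12, adjusted p 1.3e-05 by limma) and with Dox by 0.66 (adjusted p 4.8e-05 by limma). Probe b was lower by 0.83 without Dox (SE 0.14, adjusted p 1.4e-05 by limma) and by 0.58 with Dox, just under 1.5-fold (adjusted p 8.9e-04 by limma). At a normalization offset of 200, a setting chosen after seeing the data, which shrinks differences of dim probes, the differences from Ctrl_R −Dox were −0.32 for probe a and −0.27 for probe b, under 1.5-fold. Against Ppp2r1b_R −Dox, on the same side of the array background split, both probes were lower, by 0.99 and 0.84 (adjusted p 2.7e-07 and 1.7e-05 by limma). On the arrays labelled Chek1_R probes a and b were below Ctrl_R by 0.78 and 0.85 without Dox and by 0.71 and 0.69 with it. Without Dox probe a was lower in Ppm1g_R (by 0.32, adjusted p 0.0637 by limma), on the arrays labelled Chek1_R (by 0.32, adjusted p 0.0465 by limma) and in Ctrl_R (by 0.25, adjusted p 0.23 by limma), none of them 1.5-fold, and it was higher by 0.16 in Bub1b_R and 0.09 in Ppp2r1b_R, neither past the test. Probe b was 0.25 lower in Ppm1g_R and 0.16 lower on the arrays labelled Chek1_R, 0.18 higher in Bub1b_R, 0.32 higher in Ppp2r1b_R and 0.00 apart in Ctrl_R, none past the test.

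Ppm1h was near the limit of detection. It was detected on 13 of 30 arrays, on all 6 of Ppm1g_R and on none of Ctrl_R or of Bub1b_R +Dox. In Ppm1g_R it read 5.81, 5.75 and 5.74 with Dox and 5.57, 5.80 and 6.89 without it, and 1 array without Dox stood far above the others. The difference of 0.33 between the Dox states did not pass the test (95% interval −0.24 to 0.89). Ppm1h was at least 1.61-fold higher in Ppm1g_R −Dox than in Ctrl_R −Dox (adjusted p 8.2e-04 by limma) and at least 1.18-fold higher in Ppm1g_R +Dox than in Ctrl_R +Dox (adjusted p 0.0335 by limma). Such a bound takes, on each undetected array, the higher of the lowest detected signal and the probe's own. It does not allow for the higher detection limit of the Ppm1g_R arrays. Their lowest detected level was 5.568 to 5.737 without Dox, against 5.367 to 5.445 in Ctrl_R −Dox, and Ppm1h in Ppm1g_R lay close to it on most arrays. The part of this gap in either bound was not tested. Leaving out the high array of Ppm1g_R −Dox, the third, lowered the first bound to 1.22-fold (adjusted p 0.0131 by limma), and against Ppp2r1b_R −Dox the difference was 0.42 and did not pass (adjusted p 0.212 by limma).

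More paralogue probes changed between clones than between Dox states, as did more of all probes. Against Ctrl_R −Dox, 4 of 13 paralogue probes changed in Ppm1g_R (Ppm1h higher, and Ppm1b probe c and both Ppm1l probes lower), beside 33.5% of all probes. None of these 4 passed 1.5-fold at an offset of 200. The count was 0 in Bub1b_R beside 22.6%, 3 on the arrays labelled Chek1_R beside 28.8% and 2 in Ppp2r1b_R beside 33.7%. With Dox, 5 changed in Ppm1g_R against Ctrl_R (Ppm1h higher, and Ppm1b probe c, Ppm1f probe a, Ppm1k and Ppm1l probe a lower) beside 29.1%, 0 in Bub1b_R beside 12.7%, 3 on the arrays labelled Chek1_R beside 17.6% and 2 in Ppp2r1b_R beside 28.3%. In both Ppm1g_R counts Ppm1h enters by its fitted difference, although it was undetected in Ctrl_R. Its bound with Dox, given above, is under 1.5-fold. The bound without Dox is also under 1.5-fold (1.22-fold) once the third Ppm1g_R −Dox array is left out. Ppm1g_R against Ppp2r1b_R gave 2 of 13 lower without Dox (both Ppm1l probes) beside 19.9% and 3 lower with Dox (Ppm1f probes a and b and Ppm1k) beside 13.3%. None of these counts exceeded by 2 or more what the share over all probes gives for 13 probes. For the change on Dox withdrawal in Ppm1g_R beyond that in Ctrl_R, 0 of 13 changed beside 5.27%, and 2 (Ppm1d and Ppm1f probe a) passed the adjusted p alone beside 12.0%. Beyond the mean of the other targeted clones, 0 changed beside 3.08%, and 3 (Ppm1f probe a, Ppm1k and Ppm1b probe b) passed the adjusted p alone beside 11.9%.

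**Figure D4:**
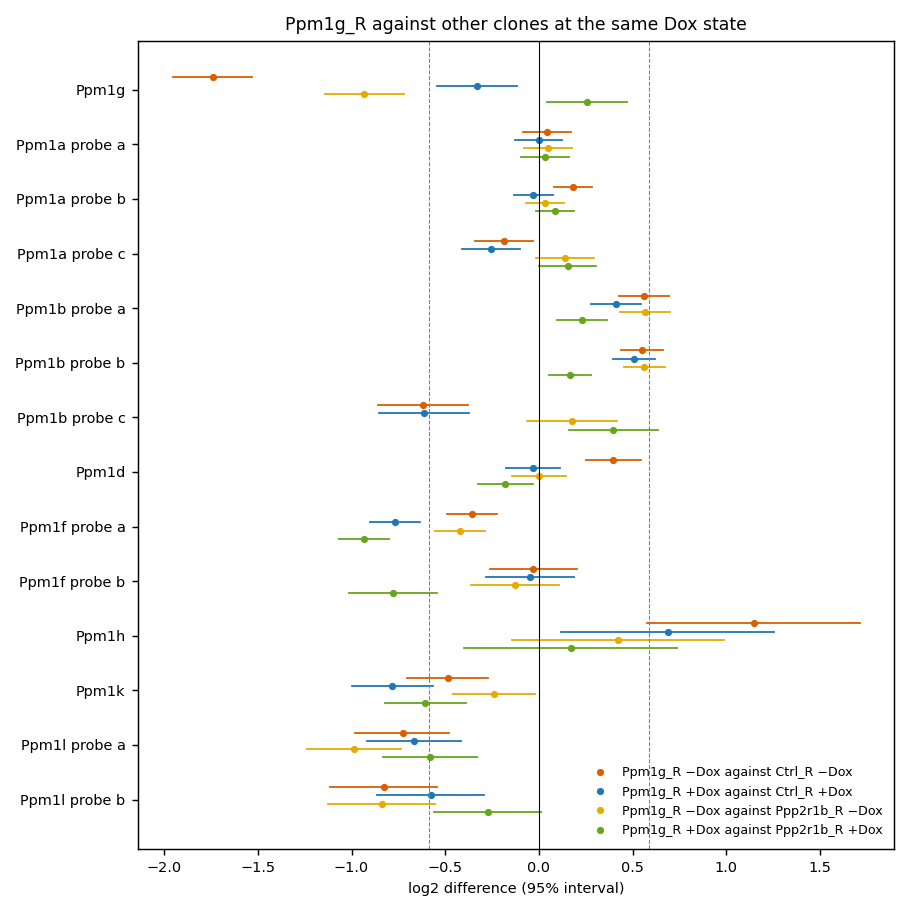
Ppm1g_R against Ctrl_R and against Ppp2r1b_R at the same Dox state (x axis, log2 difference with its 95% interval) for Ppm1g and the tested paralogue probes. Dashed lines mark 1.5-fold. Ppm1f probe a and Ppm1k lie farther to the left with Dox than without it, and Ppm1g the reverse.

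Further phosphatases of the same fold were followed as a list of 11 genes, of which 8 were tested. In Ppm1g_R 1 of the 8 fell on Dox withdrawal and 0 rose, beside 4.37% of all probes in both directions. It was Ppm1j, which changed by −0.68 (SE 0.14, adjusted p 0.00115 by limma), from 7.11 with Dox to 6.42 without it. Ppm1j also fell in Bub1b_R, by 0.62 (adjusted p 0.00242 by limma). It was lower without Dox in the remaining clones too, by 0.52 in Ppp2r1b_R, 0.37 in Ctrl_R and 0.37 on the arrays labelled Chek1_R, each under 1.5-fold. Its change in Ppm1g_R did not differ past the test from that in Ctrl_R (difference −0.31, adjusted p 0.366 by limma) or from the mean of the other targeted clones (difference −0.18, adjusted p 0.573 by limma). The next largest were Ppm1m (−0.26, adjusted p 0.00801 by limma) and Ppm1e (−0.24, adjusted p 0.345 by limma). Ppm1e was lower without Dox in every other clone too, by 0.24 in Bub1b_R, 0.10 in Ppp2r1b_R, 0.51 on the arrays labelled Chek1_R and most, by 0.68, in Ctrl_R. Ppm1m, close in sequence family to Ppm1h and Ppm1j, was also lower without Dox by 0.22 in Bub1b_R, 0.26 in Ppp2r1b_R and 0.28 on the arrays labelled Chek1_R and was 0.14 higher in Ctrl_R, each under 1.5-fold. The list's median change in Ppm1g_R was −0.03, against −0.01 over all tested probes. Against Ctrl_R −Dox, 3 of the 8 were lower (Ppm1e, Ppm1j and Ppm1m) and 0 higher, beside the 33.5% of all probes that changed there.

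Known substrates and partners of the members formed a list of 37 genes, of which 29 were tested. None of them changed on Dox withdrawal in Ppm1g_R, and the median was 0.02. Among the 6 tested partners of Ppm1g, Hexim1, the inhibitor of P-TEFb in the 7SK complex, had the largest difference. It was 7.35 without Dox and 6.79 with it, a change of 0.55 (SE 0.12, adjusted p 0.00126 by limma), just short of 1.5-fold. The change in Ppm1g_R exceeded that in Ctrl_R by 0.67 (SE 0.17, adjusted p 0.00913 by limma), past both limits, but did not exceed the mean of the other targeted clones past the test (0.35, adjusted p 0.104 by limma), and in Bub1b_R Hexim1 was 0.34 higher without Dox. The P-TEFb subunits Cdk9 and Ccnt1 differed by 0.06 and 0.01, and the 7SK capping enzyme Mepce by 0.10, none past the test.

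For Ppm1k, the 5 tested genes of branched-chain amino acid breakdown had a median of −0.26. Bckdhb, a subunit of the dehydrogenase, was lower by 0.40 (adjusted p 0.0489 by limma), the transaminase Bcat2 by 0.38 (adjusted p 0.00719 by limma) and the opposing kinase Bckdk by 0.26 (adjusted p 0.0182 by limma), each under 1.5-fold. Bcat2 was also lower without Dox by 0.33 in Bub1b_R, 0.16 in Ppp2r1b_R, 0.23 in Ctrl_R and 0.38 on the arrays labelled Chek1_R, and Bckdhb by 0.48, 0.34, 0.06 and 0.12 in the same order. Against the mean of the other targeted clones the changes of Bcat2 and Bckdhb in Ppm1g_R differed by −0.10 and −0.08, not past the test (adjusted p 0.676 and 0.817 by limma). Bckdk was higher without Dox in the other clones, by 0.10 to 0.29, and its change in Ppm1g_R differed from their mean without Ctrl_R by −0.39 (adjusted p 0.00595 by limma). For Ppm1h, both tested Rab substrates were higher in Ppm1g_R, Rab10 by 0.41 (adjusted p 0.0485 by limma) and Rab8a by 0.32 (adjusted p 0.00779 by limma). Rab10 was also higher by 0.37 in Bub1b_R, 0.27 in Ppp2r1b_R and 0.30 on the arrays labelled Chek1_R, and Rab8a by 0.33 in Bub1b_R and 0.32 on the arrays labelled Chek1_R. In Ctrl_R they were lower by 0.08 and 0.24, and Rab8a was lower by 0.04 in Ppp2r1b_R. The changes of Rab10 and Rab8a in Ppm1g_R differed from the mean of the other targeted clones by 0.10 and 0.11, not past the test (adjusted p 0.794 and 0.530 by limma). For Ppm1d, Mdm2 was higher by 0.22 (adjusted p 0.0405 by limma) while Atm at 0.25 and Mapk14 at 0.18 did not pass. For Ppm1a, Ppm1b and Ppm1l, Smad2 was higher by 0.34 (adjusted p 0.0107 by limma) while Ikbkb at 0.27 and Smad3 at −0.11 did not pass. For Ppm1f, Camk2d at 0.34, Arhgef6 at −0.28 and Pak1 at −0.15 did not pass. Against Ctrl_R −Dox, 5 partner genes were higher (Map3k7, Rab10, Camk2d, Rab8a and Bckdhb) and 1 lower (Bcat2) of the 29 tested, beside 33.5% of all probes, so that the share of partner genes was not above that of all probes.

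**Figure D5:**
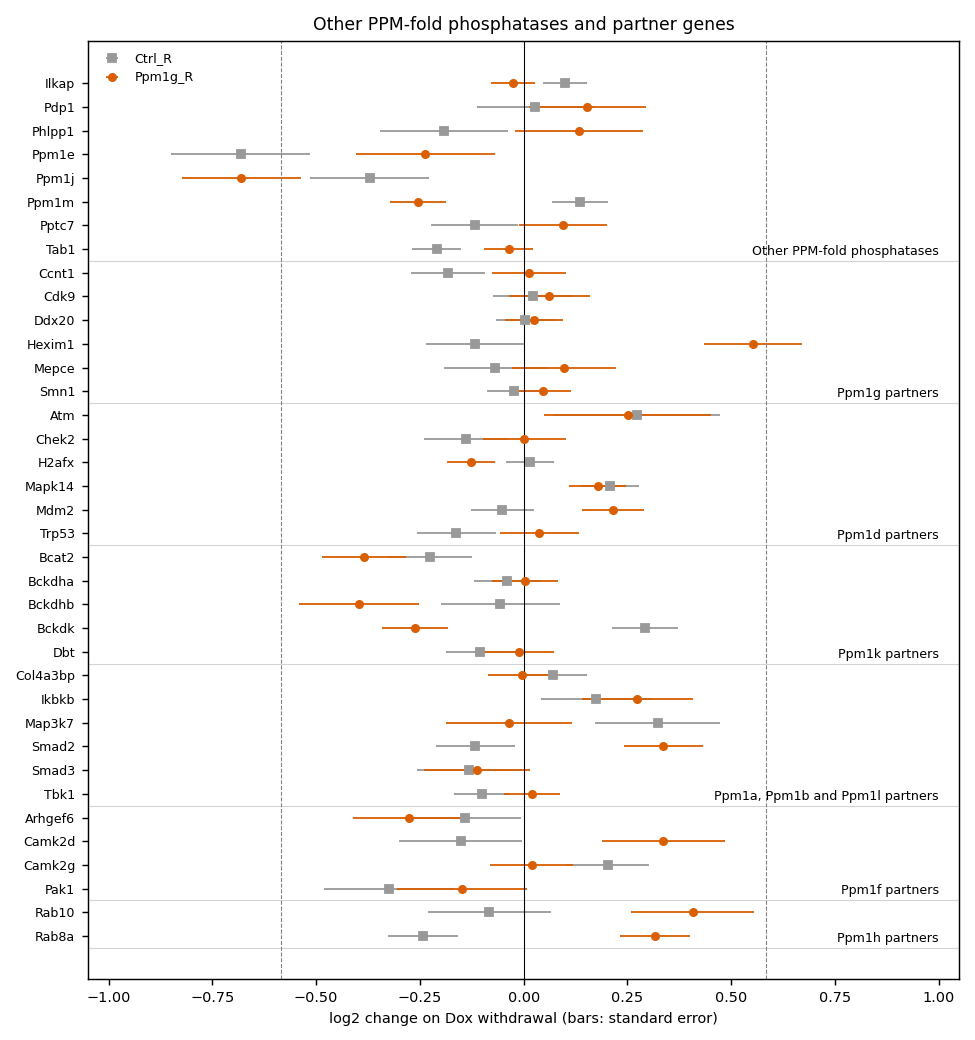
Change on Dox withdrawal (x axis, log2, with its standard error) in Ppm1g_R (orange) and Ctrl_R (grey) for each tested gene of the other PPM-fold phosphatases and of the members' partners, grouped by list. Dashed lines mark 1.5-fold. In Ppm1g_R Ppm1j alone, at −0.68, lies past them.

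Over the 30 arrays the probes most like Ppm1g were those of Taf10 (r = 0.90), Ubl4 (0.88), Paox (0.87), Hs1bp3 (0.85) and Tpd52l1 (0.84), a description over arrays that share clones and normalization. The ranking used the Ppm1g_R −Dox arrays, where Ppm1g was lowest, so lower levels of these probes there follow in part from the choice. On Dox withdrawal in Ppm1g_R, Hs1bp3 was lower by 0.64 and the other 4 by 0.18 to 0.43, which is not a separate result. For the paralogue probes r with Ppm1g lay between −0.53 (Ppm1h) and 0.52 (Ppm1a probe c).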

How the data were processed

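Total RNA of 30 samples was hybridized to Illumina mouse bead arrays. The authors deposited, for each probe and array, a background-subtracted signal intensity that was not normalized between arrays, together with a detection p-value; the labels name lumi as a tool, with no version. On 1 array each of Ppm1g_R −Dox and Bub1b_R −Dox, 46 and 14 deposited detection p-values had become dates. They were converted back or took the value of the probe with the nearest intensity; none was in a member row. In R 4.3.3, limma 3.58.1 (neqc, offset 16, quantiles, log2) normalized all arrays. Probes detected (p under 0.05) on 3 or more arrays entered 1 fit of 10 condition means (lmFit, eBayes, 20 residual and 3.38 prior degrees of freedom), with Benjamini-Hochberg adjustment per comparison. Every named p-value is from this fit unless stated. The number of arrays limits the precision.

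The members and gene lists were chosen with earlier results of these data known. All probes of the members are reported; other PPM-fold phosphatases and partner genes are named where they changed on Dox withdrawal in Ppm1g_R or among the 3 with the largest absolute change per list there. Ccnt1, Map3k7 and the ES cell and fibroblast markers given by value fall outside that rule and were named after their values were seen. Where a gene of these lists has several probes the brightest was used. The comparisons of Ppm1g_R with Ppp2r1b_R, and of the other clones with Ctrl_R in Dox, were added after seeing the data. On simulated arrays of 15151 probes, the fit recovered 85 of 100 probes changed by 0.8 log2 and 100 of 100 changed by 1.5 log2 for Ppm1g_R without against with Dox, with 1 false call. At 0.8 log2 it recovered 64 of 100 for the excess over Ctrl_R and 80 of 100 for the excess over the mean of the other targeted clones. Each of these had 3 false calls. The simulated noise was normal and independent between arrays. Matching replicate numbers did not pair the arrays (r −0.08 to 0.13 between deviations, over 0.1 in 1 of 15 pairs). Alternatives were no background correction, median scaling, offsets of 50 and 200, no or a stricter detection filter, only the arrays compared, a replicate block, a 2-fold or no fold limit, the methods' t-test, and leaving out each array.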

Additional observations from a re-analysis of the deposited data

Results flagged for a closer look

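The change on Dox withdrawal differed between clones, by the test of the difference itself in the limma fit, for 13 results of the member probes. Relative to Ctrl_R, the change in Ppm1g_R differed by −1.41 for Ppm1g, 0.41 for Ppm1f probe a and 0.43 for Ppm1d. Relative to the mean of Bub1b_R, Chek1_R and Ppp2r1b_R it differed by −1.27 for Ppm1g, 0.46 for Ppm1f probe a, 0.40 for Ppm1k and 0.25 for Ppm1b probe b. Among the other clones, relative to Ctrl_R, Bub1b_R differed by 0.45 for Ppm1d and 0.23 for Ppm1a probe b, and the arrays labelled Chek1_R by 0.43 for Ppm1d. Ppp2r1b_R differed by 0.27 for Ppm1a probe b, −0.36 for Ppm1b probe b and −0.63 for Ppm1f probe b, the last past 1.5-fold (adjusted p 0.0153 by limma). The differences from Ctrl_R share its 6 arrays.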

How the results depend on the processing

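The fall of Ppm1g in Ppm1g_R passed both limits under all 17 alternatives in each comparison, at −1.30 to −0.94 against +Dox and −1.79 to −1.36 against Ctrl_R −Dox. The count of changed paralogue probes on Dox withdrawal in Ppm1g_R was 0 under every alternative except no fold limit, which gave 2, and it was 0 throughout as arrays were left out. The excess over Ctrl_R gave 0 except 2 without a fold limit, and the excess over the mean of the other targeted clones 0 except 3. Against Ctrl_R −Dox the count of 4 became 0 at an offset of 200 (added after the data were seen), 1 with a 2-fold limit and 11 without a fold limit, and it ranged from 3 to 5 as arrays were left out. With the replicate block the 4 counts were 0, 4, 0 and 0 and the changes of Ppm1g stayed −1.25 and −1.74, so the block changed no call among these. Over 17 results for single paralogue probes and 352 alternatives, 328 kept the side of the thresholds, 11 lost it, 13 gained it and 0 reversed. The side is that of both limits together, so a result under 1.5-fold in the main fit could gain the call but not lose it. All 11 losses fell on the 4 probes changed against Ctrl_R −Dox. For results under 1.5-fold these counts therefore say little. Ppm1k on Dox withdrawal, for example, counts as kept where leaving out an array raised its adjusted p above 0.05, so that it no longer passed. Ppm1h was not tested under the stricter detection filter. Dim probes such as Ppm1h lie near the array background, which limits what a fold change there can show.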
